A study of Mus musculus with 5 samples.

Results

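Of 45101 probe sets on the array, 10 were annotated to the choroid plexus genes Ttr, Kl, Folr1, Clic6 and Igfbp2, which are 5 of the 18193 genes with a probe set. The probe sets were taken by gene symbol alone, from a list of 6 genes chosen with earlier results of these data known. Enpp2, the lysophospholipase autotaxin, was the remaining gene of that list, and no probe set was listed for it in the annotation used here, so it is not analysed here. Ttr had 4 probe sets, Kl and Clic6 had 2 each, and Folr1 and Igfbp2 had 1 each. The annotation gives no accession for 1454608_x_at and 1459737_s_at of Ttr, and both probe sets of Clic6 carry the same one. In the naming of these arrays, an x marks probes that can match unrelated sequences and an s marks probes that match several transcripts, so 1454608_x_at, 1455913_x_at, 1459737_s_at and 1454866_s_at may read more than their named gene.

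The choroid plexus lies within the ventricles of the brain, and its epithelium secretes cerebrospinal fluid and forms the barrier between blood and that fluid. Its cells make large amounts of transthyretin, which carries thyroid hormone and, together with retinol-binding protein, vitamin A. Other transcripts rich in this epithelium encode receptors, channels and secreted binding proteins that load the fluid with folate, ions and growth factors.

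Mouse brain RNA was exposed in vitro to MA-Brent-1, an RNA-binding protein and mRNA export factor of the REF/Aly family, and the RNA that bound was hybridised to Affymetrix expression arrays. RNA eluted from the deiminated protein was measured on 2 arrays and RNA eluted from the non-deiminated protein on 2. A further array held the starting RNA that had not met the protein, called input here. Deimination converts arginine in a protein to citrulline. In each bound group, 1 sample title names the protein MA-Brent-1 and the other REFP2. The labels give no strain, age or brain region, and only 1 title mentions a biological repeat, so p-values measure only how far these samples differ among themselves, which may be technical. The binding was done in vitro and not in living cells.

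Values are signal intensities on a linear scale, and every array had been scaled to a trimmed mean of 150. The median signal was 29.8 and 37.5 in deiminated-bound RNA, 30.5 and 41.4 in non-deiminated-bound RNA and 102 in input RNA. Spiked-in hybridisation controls averaged 10.60 and 12.60 log2 in deiminated-bound RNA, 10.09 and 13.05 in non-deiminated-bound RNA and 17.04 in input RNA. The 3' to 5' signal ratio of the beta-actin control was 29.8 to 55.6 on the bound arrays and 234 on the input array, and that of Gapdh was 17.4 to 31.9 on the bound arrays and 2.71 on the input array. The part of these array differences in the comparisons with input was not tested. Neuronal markers were present in the labelled brain RNA, with Rbfox3 at 3557 to 5553 on the bound arrays and 774 on the input array.

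Differences are on the log2 scale after adding a pseudocount of 4.18 to each signal. They were tested with limma over 27022 probe sets whose mean log2 signal reached 4.89, and a probe set is called where the Benjamini-Hochberg adjusted p is under 0.05. Of the 10 probe sets, 9 passed this filter and 1451892_at of Kl did not. The mean covers 4 bound arrays and 1 input array, so the filter weighs bound signal more. The same mean chooses the probe set that stands for each gene in the lists below. The input group is 1 array, assumed to vary like the bound arrays. Both bound groups are set against this same array, so the comparisons with input are not separate evidence. The signals are of bulk brain RNA and cannot be assigned to a cell type. The comparisons set bound RNA against starting RNA and do not measure cell numbers or RNA per cell.

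The choroid plexus transcripts did not move together between bound RNA and input. All 4 bound arrays lay above the input array for 6 of the 9 probe sets, against 39.1% of all probe sets. They lay below it for 3, against 45.6%. Of the 6, 4 belong to Ttr, so the 9 are not independent and give no count of genes. By gene, Ttr and Igfbp2 lay above and Folr1 and Clic6 below. Kl lay above at the probe set past the filter and below at the other. As deposited, Ttr had more signal in bound RNA than in input, though 3 of its 4 probe sets turned the other way after cyclic loess. In that scaling the median of all probe sets was -0.24 for deiminated and -0.26 for non-deiminated against input. Folr1 and both Clic6 probe sets had less, with Folr1 and Clic6 1434165_at called, though all 3 turned after scaling to the hybridisation controls and Clic6 1454866_s_at also after median centring and, for deiminated, after quantile normalisation. For deiminated against input 2 of the 9 were called higher, where 24.9% of all probe sets were, and 2 were called lower, where 26.6% were. For non-deiminated against input the counts were also 2 higher and 2 lower, against 24.7% and 25.7%. In either direction that is 4 of 9 in each comparison, against 51.5% of all probe sets for deiminated and 50.5% for non-deiminated. These shares lie near those of all probe sets, so they show nothing particular to the choroid plexus. The median difference was 0.98 for deiminated and 1.17 for non-deiminated against input, beside -0.21 and -0.19 over all probe sets. Ttr supplies 4 of the 9 values behind these medians.

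**Figure D1:**
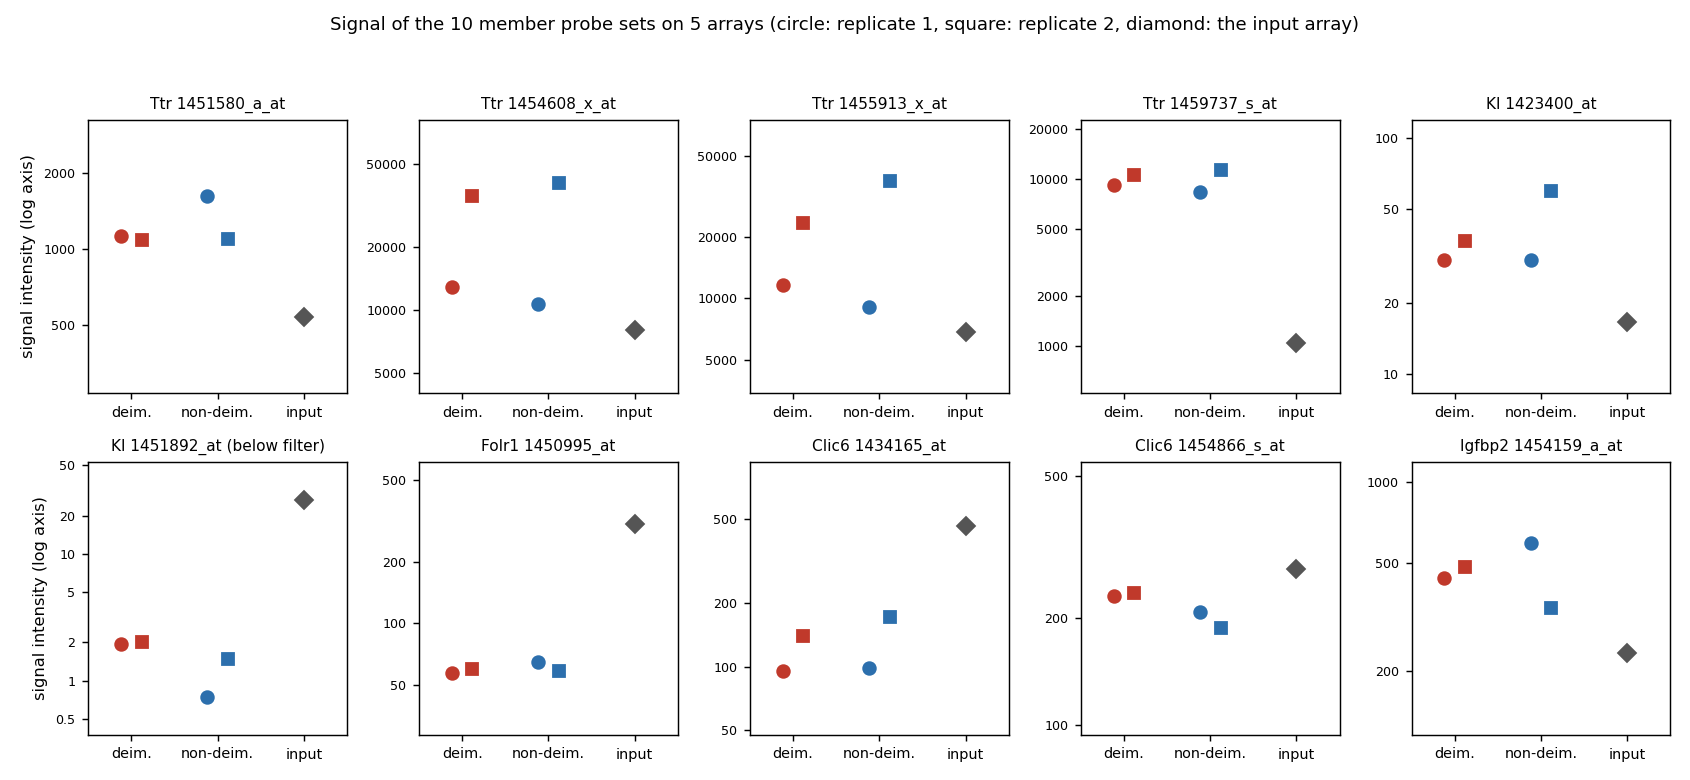
Signal intensity of each of the 10 probe sets (log axis, each panel with its own range) on the 2 deiminated arrays (red), the 2 non-deiminated arrays (blue) and the input array (grey diamond), with circles for replicate 1 and squares for replicate 2. In the deposited signals shown, the 4 Ttr panels, Kl 1423400_at and Igfbp2 have the input array lowest, while Folr1, both Clic6 panels and Kl 1451892_at have it highest.

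Ttr encodes transthyretin. Its probe set 1459737_s_at had signals of 9226 and 10523 in deiminated-bound RNA, 8322 and 11305 in non-deiminated-bound RNA and 1046 in input RNA. The 4 bound values were close together, and the input value stood far below them. The log2 difference was 3.23 ± 0.50 (SE, n = 2 and 1) for deiminated against input, a 9.39-fold higher signal (limma adjusted p = 0.000311). For non-deiminated against input it was 3.21 ± 0.50 (n = 2 and 1, limma adjusted p = 0.000344). It was called in both comparisons after quantile normalisation, median centring and cyclic loess too, with differences of 1.59 to 4.83. When arrays were scaled to their hybridisation controls it was at 8.56 and 8.57 and not called (adjusted p = 0.144 and 0.155), where the median of all probe sets was 4.32 and 4.38.

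The probe set 1451580_a_at of Ttr had signals of 1127 and 1079 in deiminated-bound RNA, 1618 and 1096 in non-deiminated-bound RNA and 535 in input RNA. All 4 bound values were above the input value, by a smaller factor than for 1459737_s_at. It was called for deiminated against input at 1.04 ± 0.39 (n = 2 and 1, limma adjusted p = 0.0404) and for non-deiminated against input at 1.31 ± 0.39 (n = 2 and 1, adjusted p = 0.0154). Without deiminated replicate 1 or 2 the call against input was lost for that group (adjusted p = 0.17 and 0.138). With a variance model without trend it was lost in both comparisons (adjusted p = 0.128 and 0.0712). In rank it was brighter than 95.3% and 95.4% of probe sets in deiminated-bound RNA, 96.8% and 95.5% in non-deiminated-bound RNA and 94.9% in input RNA. After median centring it was called (2.63 and 2.81), and after hybridisation control scaling it had 6.27 and 6.58 and was not called. After quantile normalisation it had 0.12 and 0.40 and was not called (limma adjusted p = 0.765 and 0.313). After cyclic loess its sign turned, to -0.37 and -0.06, and it was not called (limma adjusted p = 0.427 and 0.896). Relative to the median of all probe sets it was at -0.13 and 0.19 in that last scaling.

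The brightest Ttr probe sets varied most between the bound arrays. For 1454608_x_at the signals were 12881 and 34919 in deiminated-bound RNA, 10627 and 40571 in non-deiminated-bound RNA and 7998 in input RNA. It was the brightest non-control probe set on deiminated replicate 2, and within the 11 brightest on every bound array, against rank 155 on the input array. For 1455913_x_at the signals were 11592 and 23292 in deiminated-bound RNA, 9031 and 37372 in non-deiminated-bound RNA and 6869 in input RNA. In both, 1 array of each bound group was far above the other, and the groups overlapped. Their differences from input were 1.41 ± 0.87 and 1.26 ± 0.82 for the deiminated group (n = 2 and 1, limma adjusted p = 0.186 and 0.212). For the non-deiminated group they were 1.38 ± 0.87 and 1.42 ± 0.82 (n = 2 and 1, adjusted p = 0.196 and 0.162), and none of these passed. Without non-deiminated replicate 2, both were called for deiminated against input (adjusted p = 0.0348 and 0.0373), and without non-deiminated replicate 1, both for non-deiminated against input at 2.34 and 2.44. Without non-deiminated replicate 2 the non-deiminated differences were 0.41 and 0.39 (adjusted p = 0.609 and 0.587), and without deiminated replicate 2 the deiminated ones were 0.69 and 0.75 (adjusted p = 0.7 and 0.653). Without deiminated replicate 1 the deiminated difference of 1454608_x_at was 2.13 (adjusted p = 0.268). Both were called after quantile normalisation (1.24 to 1.68) and median centring (2.86 to 3.01), and turned negative after cyclic loess (-0.41 to -0.16). Relative to the median of all probe sets they were at 0.74 to 1.18, 1.52 to 1.67 and -0.17 to 0.10 in those scalings. As first scaled they were at 1.46 to 1.61 in that measure.

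Kl encodes klotho, the co-receptor through which fibroblast growth factor 23 acts, and its 2 probe sets lay on opposite sides of the input array. For 1423400_at the signals were 30.4 and 36.5 in deiminated-bound RNA, 30.3 and 59.5 in non-deiminated-bound RNA and 16.6 in input RNA. The differences from input were 0.85 (-1.02 to 2.71) for deiminated and 1.17 (-0.69 to 3.03) for non-deiminated, with limma adjusted p = 0.42 and 0.267. Without non-deiminated replicate 2 the non-deiminated difference was 0.73 (adjusted p = 0.536). In rank the probe set stood higher, above 50.4% and 49.3% of probe sets in deiminated-bound RNA, 49.9% and 58.9% in non-deiminated-bound RNA and 18.0% in input RNA. It was called after quantile normalisation (2.14 and 2.41), median centring (2.07 and 2.31) and cyclic loess (2.45 and 2.70). Its log2 signal was 4.38 on the input array, under the filter level of 4.89, so it passed the filter through its bound signals. These calls are therefore no support for a higher bound signal of Kl. Relative to the median of all probe sets it was at 1.63 and 1.93, 0.72 and 1.04, and 2.69 and 2.96 in those scalings. As first scaled it was at 1.05 and 1.36 in that measure. After hybridisation control scaling it had 3.91 and 4.28 and was not called (limma adjusted p = 0.206 and 0.187). That was -0.41 and -0.11 relative to the median.

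The other Kl probe set, 1451892_at, had signals of 1.94 and 2.0 in deiminated-bound RNA, 0.748 and 1.49 in non-deiminated-bound RNA and 26.4 in input RNA. Its bound signals lay under the pseudocount, and its mean log2 signal of 3.0 missed the filter. With no filter its differences from input were -2.32 for deiminated and -2.53 for non-deiminated (limma adjusted p = 0.00452 and 0.00295). On this array the signals thus give no single direction for Kl.

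Folr1 encodes the alpha folate receptor, which carries folate across the choroid plexus epithelium. Its probe set 1450995_at had signals of 57.3 and 60.3 in deiminated-bound RNA, 64.9 and 59.0 in non-deiminated-bound RNA and 306 in input RNA. The bound values agreed within a factor of 1.13, and the input value was far above all of them. The signal fell by 2.30 ± 0.56 on the log2 scale (n = 2 and 1, limma adjusted p = 0.00528) for deiminated against input, which is 4.93-fold lower. For non-deiminated against input it fell by 2.23 ± 0.56 (n = 2 and 1, adjusted p = 0.00651). Folr1 was brighter than 62.6% and 60.2% of probe sets in deiminated-bound RNA, 64.2% and 58.7% in non-deiminated-bound RNA and 85.8% in input RNA. It was called lower after quantile normalisation and cyclic loess too (-1.98 to -1.82). After median centring it had -0.74 and -0.75 and was not called (adjusted p = 0.29 and 0.284), and after hybridisation control scaling it turned to 2.76 and 2.88. In those 2 scalings the median of all probe sets moved to 1.34 and 1.28, and to 4.32 and 4.38. Relative to that median, Folr1 was at -2.08 and -2.03, and at -1.56 and -1.5, beside -2.09 and -2.04 as first scaled.

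Clic6 encodes an intracellular chloride channel family member found in epithelia that secrete water. Its probe set 1434165_at had signals of 95.2 and 140.0 in deiminated-bound RNA, 98.8 and 172 in non-deiminated-bound RNA and 463 in input RNA. Every bound value was below the input value, and the bound groups overlapped. The signal fell by 1.97 ± 0.50 on the log2 scale (n = 2 and 1, limma adjusted p = 0.00678) for deiminated against input and fell by 1.80 ± 0.50 (n = 2 and 1, adjusted p = 0.0112) for non-deiminated against input. It was called lower after quantile normalisation (-2.36 and -2.22) and cyclic loess (-2.21 and -2.05) too. After median centring it had -0.39 and -0.30 and was not called (limma adjusted p = 0.57 and 0.664), and after hybridisation control scaling it turned to 3.22 and 3.43. Relative to the median of all probe sets it was at -1.73 and -1.58, and at -1.10 and -0.96, in those scalings.

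The other Clic6 probe set, 1454866_s_at, had signals of 230.2 and 234 in deiminated-bound RNA, 208 and 188 in non-deiminated-bound RNA and 274 in input RNA. The bound values lay a little under the input value, with differences of -0.23 (-1.12 to 0.65) and -0.46 (-1.35 to 0.43) that did not pass (limma adjusted p = 0.646 and 0.359). Its sign turned under quantile normalisation for deiminated (0.07), median centring (1.34 and 1.03) and hybridisation control scaling (4.82 and 4.63). Relative to the median of all probe sets in those scalings it was at -0.44, at -0.01 and -0.25, and at 0.51 and 0.25. As deposited, the bound values of both Clic6 probe sets lay below the input value. As first scaled and relative to the median of all probe sets, 1454866_s_at was at -0.03 and -0.27, and 1434165_at at -1.76 and -1.60. So 1454866_s_at gives no clear second reading of the fall in 1434165_at.

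Igfbp2 encodes a secreted protein that binds insulin-like growth factors. Its probe set 1454159_a_at had signals of 442 and 485 in deiminated-bound RNA, 591 and 340.1 in non-deiminated-bound RNA and 232 in input RNA. All bound values were above the input value, and the non-deiminated values spread more widely than the deiminated ones. Its differences from input were 0.98 (0.08 to 1.89) for deiminated and 0.94 (0.03 to 1.85) for non-deiminated, and neither passed (limma adjusted p = 0.0648 and 0.0777). Relative to the median of all probe sets it was at 1.19 and 1.13. In that measure it was at 0.92 and 0.90 after quantile normalisation, 1.21 and 1.15 after median centring and 0.18 and 0.16 after cyclic loess. It was called after quantile normalisation (1.43 and 1.38) and median centring (2.56 and 2.42), had -0.06 and -0.10 after cyclic loess, and was called for deiminated without non-deiminated replicate 1 or 2 (adjusted p = 0.0183 and 0.0159) and for non-deiminated without its replicate 2 (1.33, adjusted p = 0.00668). Without non-deiminated replicate 1 the non-deiminated difference was 0.54 (adjusted p = 0.26).

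**Figure D2:**
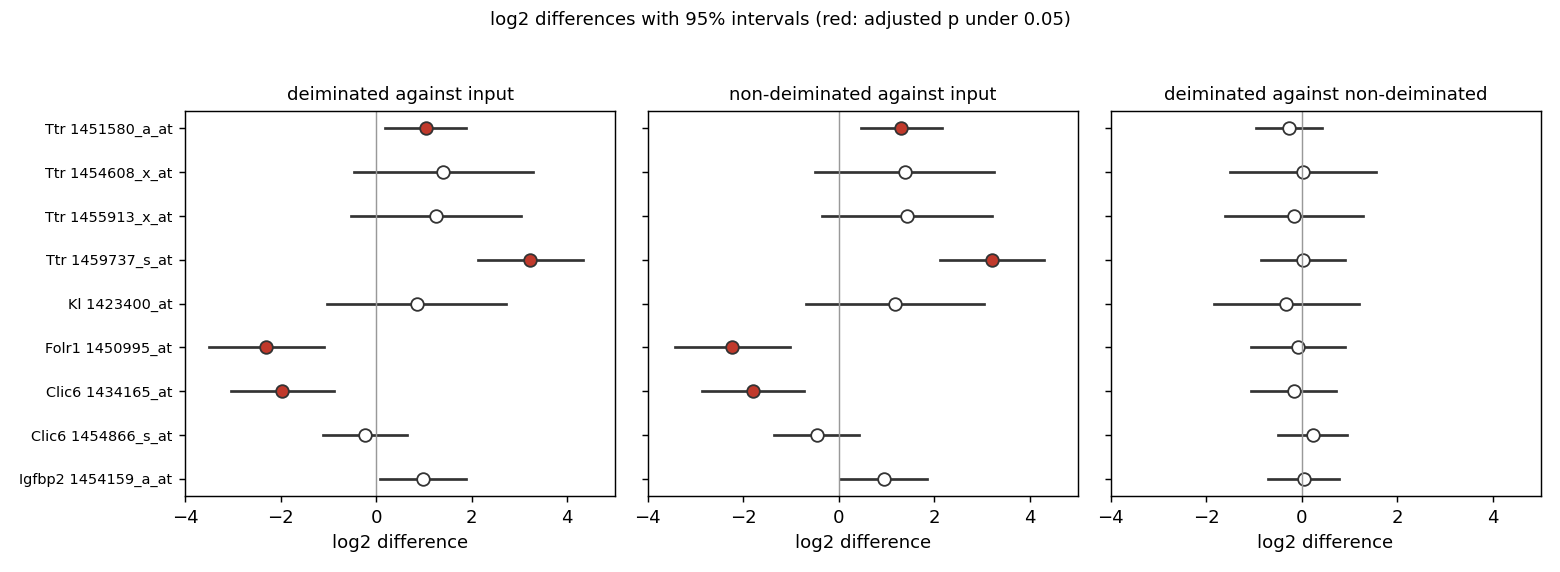
The log2 difference (x axis) of the 9 probe sets past the filter for deiminated against input, non-deiminated against input and deiminated against non-deiminated, with bars for 95% intervals from limma and red points for adjusted p under 0.05. In the authors' scaling, called points stand right of 0 for 2 Ttr probe sets and left of 0 for Folr1 and Clic6 1434165_at, and the panel of deiminated against non-deiminated has no called point.

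Whether deimination changes which RNAs bind is asked by the comparison of the 2 protein forms. Limma called 0 of the 9 probe sets, beside 0% of all 27022, and 0 of the 9 had an unadjusted p under 0.05, where 356 of all probe sets did. The differences ran from -0.32 for Kl 1423400_at to 0.23 for Clic6 1454866_s_at, with 4 positive and 5 negative and a median of -0.07. Every limma adjusted p of the 9 was 0.9999. Only Clic6 1454866_s_at had groups that did not overlap, with 230.2 and 234 in deiminated and 208 and 188 in non-deiminated RNA, against 24.1% of all probe sets. Its difference was 0.23 (-0.50 to 0.95).

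The intervals limit what could be seen. For Ttr 1451580_a_at the difference between protein forms was -0.27 (-0.96 to 0.42), and for Ttr 1459737_s_at it was 0.02 (-0.86 to 0.91). Folr1 had -0.07 (-1.05 to 0.91), Clic6 1434165_at -0.17 (-1.05 to 0.71) and Igfbp2 0.05 (-0.70 to 0.79). The interval was widest for Kl 1423400_at (-1.84 to 1.20) and Ttr 1454608_x_at, at 0.03 (-1.50 to 1.56), with -0.16 (-1.61 to 1.29) for Ttr 1455913_x_at. These bounds are not a limit of detection, since calls were adjusted over all 27022 probe sets and larger changes could also go uncalled. With 2 arrays per group, an exact permutation test of a single value cannot go below p = 0.333.

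For some members the difference between arrays with higher and lower hybridisation controls was larger than that between protein forms. Each bound group had 1 array with higher controls, replicate 2 in each as numbered here. Ttr 1454608_x_at was 1.69 higher in log2 signal on these arrays than on the others, and Ttr 1455913_x_at was 1.53 higher. Clic6 1434165_at was 0.66 higher, Kl 1423400_at 0.56 and Ttr 1459737_s_at 0.32. For these 5 of the 9 both arrays with higher controls lay above both others, against 30.0% of all probe sets. Ttr 1451580_a_at had the opposite order, with -0.31, which 18.9% of all probe sets shared. Igfbp2 had -0.33 with overlapping arrays, Folr1 -0.03 and Clic6 1454866_s_at -0.06.

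The same split moved with brightness. Among the 100 brightest probe sets by mean log2 signal, all 100 had both arrays with higher controls above both others, with a median of 1.07 and a range of 0.18 to 1.69, against a median of 0.09 over all 27022. The 1.69 of Ttr 1454608_x_at is the top of that range. The highest non-control signal was 34919 on the deiminated array with higher controls and 15839 on the other, and 45160 and 12703 on those of the non-deiminated group. The part of brightness and of control level in the Ttr values was not tested. Within the arrays with higher controls, deiminated minus non-deiminated was -0.22 for Ttr 1454608_x_at and -0.68 for Ttr 1455913_x_at, and within those with lower controls 0.28 and 0.36. With the level as a block and the bound arrays alone, limma again called 0 members. Within arrays titled MA-Brent-1 the same probe sets had -1.65 and -1.69, and within those titled REFP2 1.72 and 1.37. The MA-Brent-1 titles match the deiminated array with lower controls to the non-deiminated array with higher controls, and the REFP2 titles do the reverse. Matching by title thus also carries the split by control level. Under either matching the sign differed between the pairs of arrays.

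**Figure D3:**
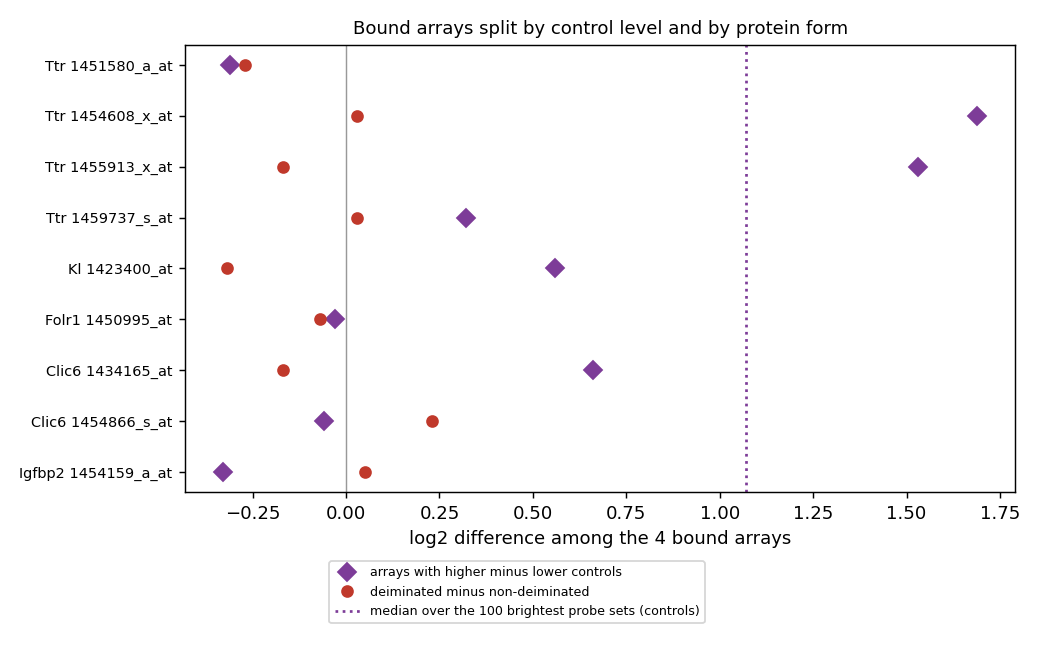
Differences among the 4 bound arrays (log2, x axis) for the 9 probe sets, as arrays with higher minus lower hybridisation controls (purple diamonds) and as deiminated minus non-deiminated (red circles), with a dotted line at 1.07, the median of the first over the 100 brightest probe sets. Ttr 1454608_x_at and 1455913_x_at stand at 1.69 and 1.53 by control level, while no red circle lies beyond -0.32 or 0.23.

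A list of 40 other genes of the choroid plexus epithelium showed the same mixture. Of these, 39 had a probe set and 33 passed the filter, each gene taken by its probe set of highest mean signal. Against input, 11 were called higher in deiminated RNA (33.3%, beside 29.5% of 13055 genes) and 5 lower (15.2%, beside 22.4%). The non-deiminated counts were also 11 higher (29.2% of all genes) and 5 lower (21.3%). The medians were 0.55 and 0.51, beside 0.11 and 0.12 over all genes. Between protein forms 0 of the 33 were called by limma, beside 0% of all genes, with 17 positive, 16 negative and a median of 0.03.

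Slc12a2, the sodium, potassium and chloride cotransporter that moves ions across this epithelium, had 1225 and 1401 in deiminated-bound RNA, 1395 and 1299 in non-deiminated-bound RNA and 531 in input RNA. It rose by 1.30 and 1.33 against input (limma adjusted p = 0.0122 and 0.0111), and all 3 of its probe sets were higher on every bound array. Slc5a3, a myo-inositol transporter, rose by 1.96 and 1.84. Ecrg4, which encodes a secreted peptide precursor, rose by 1.27 and 1.09, while its other 2 probe sets were lower on every bound array than on the input array. The nucleoside and monoamine transporter gene Slc29a4 fell, with differences of -1.01 and -1.04 (limma adjusted p = 0.0343 and 0.0305), with 763 and 770.4 in deiminated-bound RNA, 720 and 776 in non-deiminated-bound RNA and 1546 in input RNA.

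The other 4 genes called lower are named here after their values were seen. Aqp1, the water channel of the apical membrane, had signals of 20.6 and 34.4 in deiminated RNA, 23.1 and 25.4 in non-deiminated RNA and 251 in input, and fell, with differences of -3.04 and -3.17. Cldn2, a tight junction protein, fell, with differences of -2.75 and -2.57. Ace, the angiotensin-converting enzyme, fell, with differences of -3.91 and -2.53, and Steap1, a metalloreductase family gene, with -1.79 and -1.59. Chosen in the same way, Otx2, a transcription factor of this epithelium, rose by 2.08 and 2.17, and the coagulation factor gene F5 rose by 3.03 and 3.18, with an input signal of 3.29 that lay under the pseudocount.

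**Figure D4:**
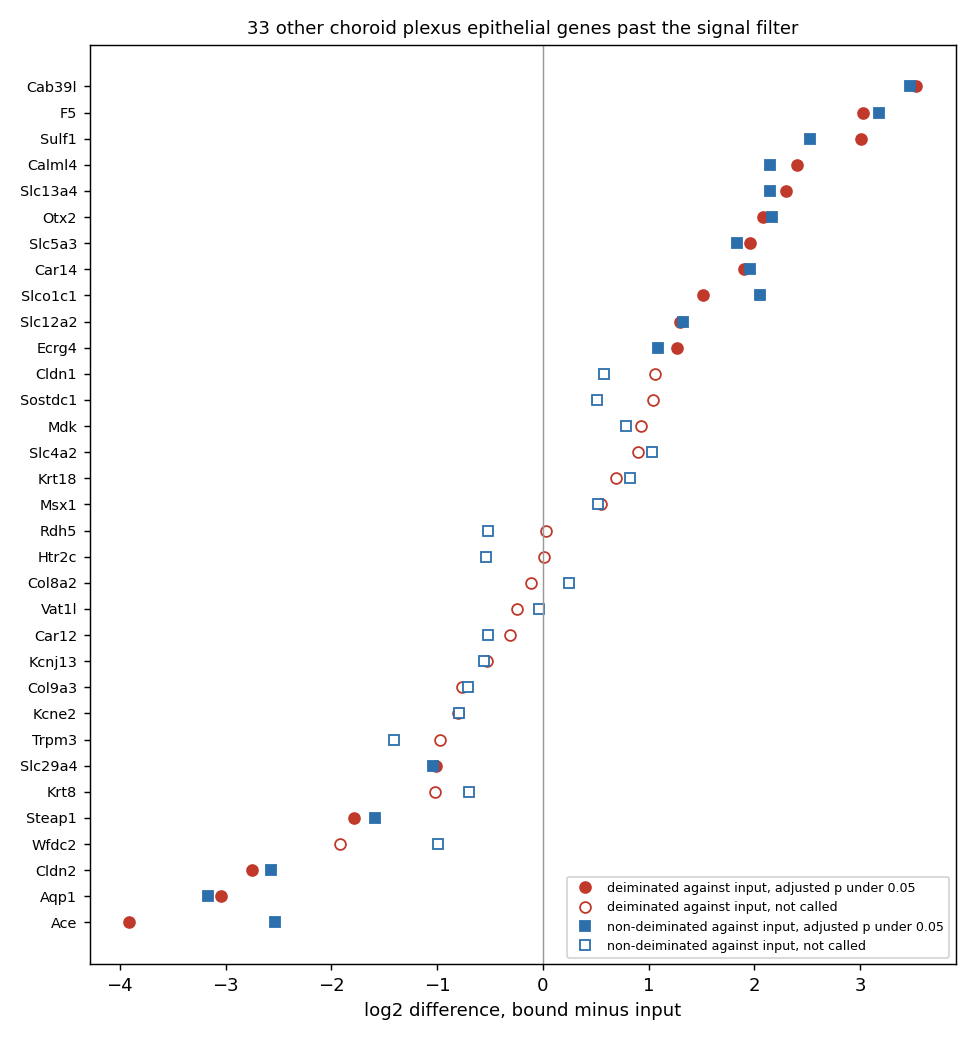
The log2 difference from input (x axis) of 33 other choroid plexus epithelial genes, 1 per row, for deiminated (red circles) and non-deiminated RNA (blue squares), filled where adjusted p is under 0.05. Filled points stand on both sides of 0, from Cab39l at 3.53 and 3.47 to Ace at -3.91 and -2.53.

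Probe sets of one gene often disagreed about the side of the input array. Of 5643 genes with several probe sets past the filter, 2571 (45.6%) had some with all bound arrays above the input array and others with all below it. Among the choroid plexus list it was 3 of 11 genes, and among the members with several such probe sets, Ttr and Clic6, it was 0 of 2. A direction that rests on 1 probe set, as for Folr1 and Igfbp2, had no second probe set to set beside it.

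Genes that act with the members were listed by role. Over all 13055 genes, 29.5% were called higher and 22.4% lower for deiminated against input, and 29.2% higher and 21.3% lower for non-deiminated against input. For transthyretin, 7 of 14 genes of thyroid hormone and retinol handling passed the filter, with 3 called higher and 1 lower for deiminated against input and 4 higher and 2 lower for non-deiminated against input. Dio2, which activates thyroid hormone, had 1273 and 1530 in deiminated-bound RNA, 1339 and 987 in non-deiminated-bound RNA and 83.7 in input RNA, and rose by 3.99 and 3.71 (limma adjusted p = 7.8e-06 and 1.38e-05), while 1 other probe set was lower on every bound array. Thra, a thyroid hormone receptor, rose by 1.5 and 1.29, with 2 further probe sets lower on every bound array. Rbp4, the retinol-binding protein, had 0.05 and 0.21 and was not called.

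In the folate list 9 of 13 genes passed the filter, with 1 higher and 3 lower for deiminated and 1 higher and 2 lower for non-deiminated against input, beside the same 29.5% and 22.4%, and 29.2% and 21.3%, of all genes. Mthfd1, an enzyme of folate metabolism, rose by 3.15 and 3.17, and Shmt1, a serine hydroxymethyltransferase, fell, with differences of -3.90 and -4.19, with all 4 of its probe sets lower on every bound array. Of 12 genes of the insulin-like growth factor list, 10 passed the filter, with 4 higher and 1 lower for deiminated and 3 higher and 1 lower for non-deiminated. The growth factor gene Igf1 fell, with differences of -2.16 and -2.02, and the binding protein gene Igfbp5 rose by 1.94 and 1.82. Each of these genes also had 1 probe set on the other side of the input array.

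The fibroblast growth factor list around klotho had 5 of 9 genes past the filter, with 1 higher and 0 lower for deiminated and 1 higher and 1 lower for non-deiminated. For each list in this paragraph the shares over all genes were again 29.5% higher and 22.4% lower, and 29.2% and 21.3%. The receptor gene Fgfr1 rose by 1.40 and 1.61, with 1 other probe set lower on every bound array. Among 4 other Clic genes 3 passed the filter and Clic4 was the 1 called, higher by 4.46 and 4.59, while its other probe sets included 1 that was lower on every bound array. In the list of lysophosphatidic acid receptors, phosphatases and related enzymes, 9 of 14 passed the filter, with 1 higher and 1 lower for deiminated and 2 higher and 1 lower for non-deiminated. The receptor gene Lpar1 rose by 0.99 and 0.98 (limma adjusted p = 0.044 and 0.0465), also with 1 other probe set lower. None of these 6 lists had a gene called between protein forms, where limma called 0 over all genes.

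Markers of neighbouring cell types give the other sources from which some members could come, since Igfbp2 is also made in the meninges and in glia. Ependymal markers had 1 of 7 genes higher and 2 lower for deiminated, and 1 higher and 3 lower for non-deiminated against input, beside 29.5% and 22.4%, and 29.2% and 21.3%, of all genes. Their summed signal was 3032 to 3268 in deiminated-bound RNA, 2629 to 3731 in non-deiminated-bound RNA and 6136 in input RNA. Pltp, a phospholipid transfer protein gene, made up most of it, at 1949 to 3036 on the bound arrays and 5353 on the input array, and its other probe set was higher on every bound array. Meningeal markers had 3 of 12 higher and 3 lower, and 4 higher and 2 lower, with sums of 10570 to 11936 in deiminated-bound RNA, 9126 to 13488 in non-deiminated-bound RNA and 3056 in input RNA. Ptgds, a prostaglandin synthase made by meninges, choroid plexus and oligodendrocytes, was 8096 to 12183 on the bound arrays and 1360 on the input array, and made up most of the sum on the bound arrays. Endothelial markers had 1 of 7 higher and 3 lower, and 1 higher and 2 lower, with sums in the same order of arrays of 3129 to 3250, 2388 to 3926 and 2600.

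Astrocyte markers had 6 of 10 higher and 0 lower in both comparisons, beside 29.5% and 29.2% of all genes called higher and 22.4% and 21.3% lower, with sums in the same order of arrays of 26727 to 32236, 25080 to 31385 and 7571. Oligodendrocyte markers had 6 of 9 higher and 0 lower in both, with sums of 32319 to 58903, 26258 to 70975 and 49346, of which Mbp and Cnp, neither of them called, made up most. Neuronal markers had 9 of 12 higher for deiminated and 8 of 12 for non-deiminated, with 0 lower, and sums of 20416 to 22405, 19965 to 21359 and 6563. These counts rest on the brightest probe set of each gene. Among genes called higher, Syt1 had 3 probe sets lower on every bound array, Gja1 had 2, and Mobp and Slc1a2 had 1 each. Rbfox3, Nefl and Aldoc had 0. The sum over the 33 other choroid plexus genes was 7884 to 8015 in deiminated-bound RNA, 7307 to 7896 in non-deiminated-bound RNA and 7379 in input RNA. Limma called 0 genes of these lists between protein forms, as over all genes. The part of these cell types in the members' values was not tested.

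Genes with the most similar profile were found by the root mean square difference of centred log2 signal over the 5 arrays, among 13054 genes. For Ttr, taken by 1454608_x_at, they were Hnf4a (0.079), Emp3 (0.128), Tasor2 (0.164), 9430083A17Rik (0.179) and Kctd20 (0.203), beside a median of 1.10 over all genes. Hnf4a had signals of 23.3 and 67.8 in deiminated-bound RNA, 17.4 and 76.0 in non-deiminated-bound RNA and 14.3 in input RNA, so it shared the split between arrays at a far dimmer level. For Kl 1423400_at the nearest were 1110046J04Rik (0.032) and Pan3 (0.056). Gfpt2 (0.048) and Kdelr1 (0.056) were nearest to Folr1, Tom1 (0.050) and Gfap (0.051) to Clic6 1454866_s_at, and Capzb (0.057) and Tmem165 (0.070) to Igfbp2. With 5 arrays and this many genes, close profiles describe these arrays and nothing more.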

How the data were processed

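Signal intensity per probe set was taken from the table the authors deposited, and MAS5 is named in the submitters' processing notes, while version and genome build are not given in the sources used here. Each array had a mean of 150 once 2% of values were left out at each end. Groups came from the sample descriptions, and replicates were numbered in sample order, which pairs nothing. The pseudocount of 4.18 is the overall median signal of 41.8 over 10, and the filter is the 40th percentile of mean log2 signal over 45037 non-control probe sets. One model of the 3 group means was fitted with limma 3.58.1 in R 4.3.3 (lmFit, eBayes with trend, 2 residual and 10.91 prior degrees of freedom), and adjusted over all 27022 probe sets. Errors are standard errors and intervals cover 95%. The fit was tested on simulated data.

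Gene names came from the platform annotation, where 34945 probe sets had 1 symbol, 932 several and 9160 none listed. Members and lists were chosen with earlier results of these data known, and the lists came from textbook knowledge. All member probe sets are named, and in the other lists up to 4 genes by mean signal unless stated. Lists are described by counts without a set test. Alternatives changed the pseudocount, filter, scaling, variance model, samples and blocks. The block for control level was added after seeing the data. The number of arrays limits the precision.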

Additional observations from a re-analysis of the deposited data

How the results depend on the processing

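No analysis paired by replicate number was possible because the labels give no shared numbers, while arrays could be matched by the protein name in their titles. With that name as a block and the bound arrays alone, limma called 0 probe sets between protein forms (316 at an unadjusted p under 0.05). Between protein forms, limma called 0 member probe sets under every alternative run, and 0 to 24 probe sets in all with 1 array omitted (24 without non-deiminated replicate 1, 2 without non-deiminated replicate 2). For deiminated against input, 13925 probe sets were called, against 21261 with no filter, 9226 to 16695 with 1 array left out (9226 without deiminated replicate 1) and 0 after hybridisation control scaling, where 7163 had an unadjusted p under 0.05. For non-deiminated against input, 13635 were called, against 0 after that scaling (7399 unadjusted). The 4 members called for deiminated against input became 7 after quantile normalisation, 0 after hybridisation control scaling and 3 to 7 with 1 array left out (3 without either deiminated array, 7 without non-deiminated replicate 2), and the 4 for non-deiminated against input became 7 and 0 in those scalings. Of the calls against input, 48.4% and 49.0% were higher, against 64.5% and 64.6% after quantile normalisation and 91.9% and 92.4% after median centring. This share also moved with the filter, to 30.8% and 31.8% with no filter and 64.6% and 65.2% with the stricter filter. Differences from input that changed sign for deiminated were -0.37, -0.26, -0.41 and -0.06 after cyclic loess for Ttr 1451580_a_at, 1454608_x_at, 1455913_x_at and Igfbp2, and for non-deiminated -0.06, -0.19, -0.16 and -0.10. After hybridisation control scaling they were 2.76, 3.22 and 4.82 for Folr1, Clic6 1434165_at and Clic6 1454866_s_at for deiminated, and 2.88, 3.43 and 4.63 for non-deiminated. Clic6 1454866_s_at also had 0.07 for deiminated after quantile normalisation, and 1.34 and 1.03 after median centring. Between protein forms, Ttr 1459737_s_at had -0.08, -0.05 and -0.01 after quantile normalisation, cyclic loess and hybridisation control scaling. In the last 2 of these Ttr 1454608_x_at had -0.07 and -0.00, and Folr1 had 0.01 after median centring. With 1 array left out, deiminated against non-deiminated ranged from -0.55 to 0.01 for Ttr 1451580_a_at, -0.94 to 1.00 for 1454608_x_at, -1.19 to 0.86 for 1455913_x_at and -0.20 to 0.24 for 1459737_s_at. It ranged from -0.77 to 0.12 for Kl 1423400_at, -0.56 to 0.22 for Clic6 1434165_at and -0.35 to 0.44 for Igfbp2. The cause of these changes was not tested. Probe sets near background and 2 arrays per bound group, with 1 input array, limit what could be measured.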

Other observations

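Igfbp4, another insulin-like growth factor binding protein gene, had 6 probe sets, of which 3 were higher and 3 lower on every bound array than on the input array. Its brightest probe set, 1437406_x_at, had signals of 1774 and 1510 in deiminated-bound RNA, 2146 and 1630 in non-deiminated-bound RNA and 21.3 in input RNA, with differences from input of 6.01 and 6.20 (limma adjusted p = 7.83e-07 and 8.13e-07). Slco1a4, an organic anion transporter of brain vessels, had 381 and 308 in deiminated-bound RNA, 391 and 257 in non-deiminated-bound RNA and 12.1 in input RNA, with differences of 4.41 and 4.30 (limma adjusted p = 1.51e-05 and 1.93e-05). Ccdc153, a marker of ciliated ependymal cells, rose by 3.25 and 3.26, while Pltp, in the same list, fell, with -1.14 in both comparisons at its brighter probe set, and had another probe set that was higher on every bound array.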
